A study of Mus musculus with 5 samples.

Results

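Collagen genes were described across kidney cell classes in single-cell RNA sequencing of mouse kidney after unilateral ischemia-reperfusion (UIR). The members were taken by their symbols: every gene of the matrix named Col, a number, a and a number, of which 44 were present among 32285 genes. Of these, 32 had at least 20 UMIs (unique molecular identifiers, counted RNA molecules) over the kept barcodes, and these 32 are described here. A kept barcode, taken as a cell, had at least 500 UMIs, at least 200 genes and at most 25% of its UMIs from mitochondrial genes, and 79202 barcodes met these limits. The other 12 collagen genes, among them Col2a1, Col9a1, Col9a2, Col9a3, Col10a1 and Col11a1, whose chains are known from cartilage, had between 1 and 14 UMIs each.

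The series held 5 kidney samples, 1 from a sham operation and 1 each from acute kidney injury (AKI) on day 1, day 3, day 14 or day 28 of UIR, in which the vessels of the left kidney were clamped and released while the right kidney was left intact. The study used male C57BL/6J mice aged 6 to 8 weeks, and by the labels each kidney sample came from 3 mice. Kidneys were digested with collagenase I, collagenase IV and hyaluronidase. The matrix held 5 libraries, known only by the number that ends each barcode, and which mice each library held was not given in the sources used here. The methods of the study describe more matrices than there are libraries here, and how the matrices relate to the libraries was not given either. The labels did not tie these numbers to the sham operation or to a day, so no comparison between sham and injured kidneys was made, and values are given by library number as a description with no test. All intervals are 95% intervals for counting error only.

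Collagens are proteins of 3 chains wound around each other. Fibrillar collagens (types I, III and V) form the fibers of the interstitium and of scars, type IV collagen forms the sheet of basement membranes under epithelium and endothelium, and type VI collagen forms beaded filaments close to cells. In the glomerulus, the mature basement membrane is built from the α3, α4 and α5 chains of type IV collagen, which podocytes are known to make, while the α1 and α2 chains are found in most basement membranes.

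The libraries differed in where their fibrillar collagen UMIs lay. In libraries 1 and 2, 92.2% and 79.9% of the UMIs of Col1a1, Col1a2 and Col3a1 (the chains of types I and III) were in kept barcodes. In libraries 3, 4 and 5 the share was 4.74%, 0.693% and 0.41%. Of the UMIs of these genes, 80.1%, 63.1% and 74.4% were instead in barcodes of 10 to 99 UMIs in libraries 3, 4 and 5, and a further 28.3% in library 4 in barcodes of 100 or more and fewer than 500. Among barcodes of at least 10 and fewer than 500 UMIs, 1455, 3710 and 728 in libraries 3, 4 and 5 had at least 3 UMIs of these genes making up at least 3% of the barcode, and none in libraries 1 and 2. These shallow barcodes had 3906 distinct sequences, and each of the 3906 had a UMI in all of libraries 3, 4 and 5. Among kept barcodes, 642 sequences occurred in 2 or more libraries, and 72 kept barcodes, 2 of them fibroblast-like, had a sequence of the 3906. What follows describes kept barcodes, and holds few of the interstitial collagen UMIs of libraries 3 to 5.

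**Figure D1:**
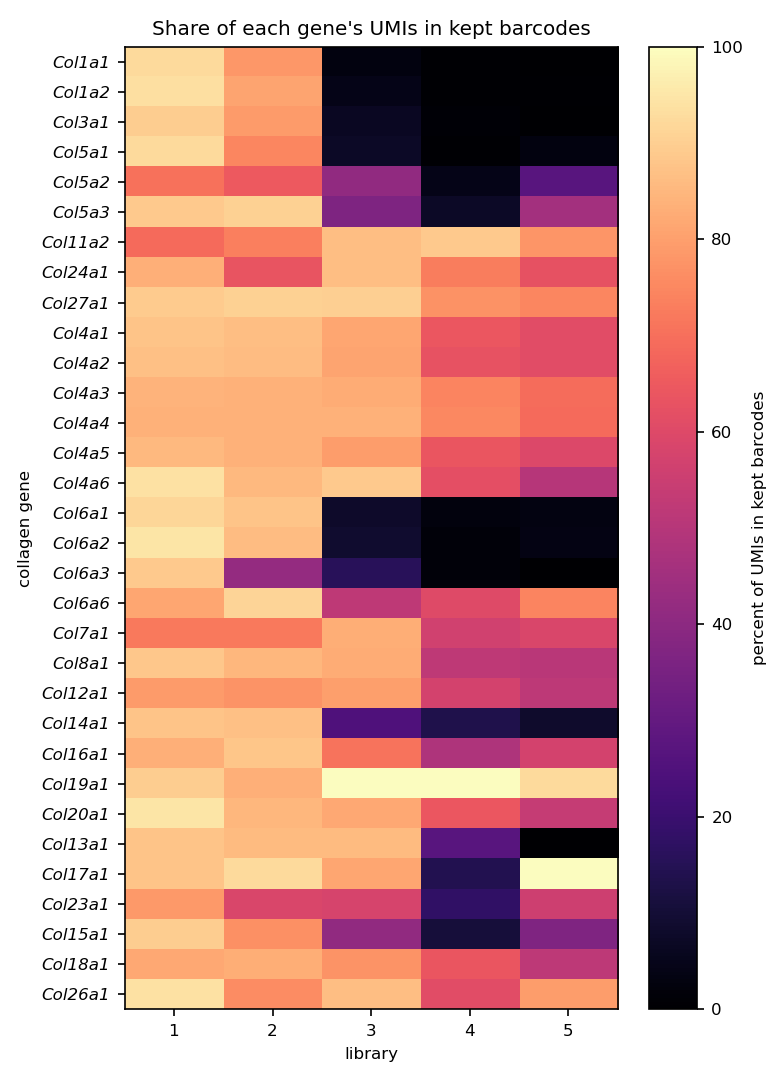
Share of each collagen gene's UMIs that lay in kept barcodes (color, percent) for the 32 genes (rows) in libraries 1 to 5 (columns). Col1a1, Col1a2, Col3a1, Col5a1, Col6a1, Col6a2 and Col6a3 are dark in libraries 3 to 5, while Col4a1 stayed between 61.3% and 87.7% in all 5 libraries.

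The members differed in this share. Over all libraries, 9.18% of Col1a1, 11.8% of Col1a2, 8.7% of Col3a1, 15.4% of Col6a3, 21.7% of Col5a1 and 31.9% of Col5a2 UMIs were in kept barcodes. For the type IV genes the share was 75.2% to 84.2%, for Col18a1 it was 75.4%, and for Col27a1 it was 86.5%. By library, Col1a1 was at 92.2%, 78.5%, 3.05%, 0.505% and 0.197% in libraries 1 to 5, and Col4a1 at 87.7%, 86.7%, 81.3%, 64.1% and 61.3%. In libraries 1 and 2 Col5a2 was at 70.6% and 65.1% and Col6a3 at 88.9% and 41.9%, the last from 31 of 74 UMIs.

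Kept barcodes were sorted into 15 classes by marker genes, none of them a collagen. A barcode entered a class when its marker UMIs exceeded the level of its library by a Poisson probability of 1e-06 or less, and barcodes that passed more than 1 gate or carried proximal tubule RNA at or above the library's level were left out as mixed (875 barcodes), which also stood in for a doublet caller. Proximal tubule-like barcodes were those with at least 5 of 8 proximal tubule markers and no other gate passed. In all, 40405 barcodes (51.0%) were gated. The fibroblast-like class held 31 barcodes (7, 7, 13, 4 and 0 in libraries 1 to 5), the mural-like class (pericytes and smooth muscle) 95, the endothelial-like class 334, the podocyte-like class 77 and the proximal tubule-like class 33989.

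The classes were checked against further markers. All 7 fibroblast markers outside the gate were highest in the fibroblast-like class, 4 of 7 mural markers in the mural-like class, 6 of 7 endothelial markers in the endothelial-like class and 4 of 5 podocyte markers in the podocyte-like class. A class of 214 barcodes gated on Havcr1, Krt20, Sox9, Itgb6 and Cdh6, genes known from injured tubules, had none of its 5 further markers (Krt18, Krt8, Clu, Spp1 and Anxa2) highest, although all 5 were higher there than in proximal tubule-like barcodes. It is therefore called the Havcr1-gated class. The labels name goblet cells as the cell type of every sample, and the data went against this: the goblet cell genes Muc2, Tff3, Spdef, Zg16, Fcgbp, Clca1 and Agr2 were each at or below 0.175 CPM (counts per 1000000 UMIs) over kept barcodes, and Zg16 had no UMI.

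The kept barcodes held 170864 collagen UMIs. Type IV genes made up 70.5% of them, fibrillar genes 13.0% (22294 UMIs, of which 14858 were of Col27a1), the multiplexins Col15a1 and Col18a1 11.3%, and all other groups together the rest. Among gated barcodes, 93.1% of collagen UMIs (interval 93.0 to 93.2) came from the 6 tubule classes, and 4.05% (3.94 to 4.15) from fibroblast-like and mural-like barcodes. The proximal tubule-like class held 84.8% of gated collagen UMIs and 88.7% of all gated UMIs. The share of 4.05% was 7.93% with a mitochondrial limit of 10% and 2.65% without library 1. Relative to each class's own UMIs, collagen genes together were at 20700 CPM (20000 to 21400) in fibroblast-like, 2980 (2860 to 3120) in mural-like, 1490 (1340 to 1660) in podocyte-like, 1290 (1250 to 1330) in Havcr1-gated, 1140 (1090 to 1190) in endothelial-like and 479 in proximal tubule-like barcodes. Macrophage-like and T/NK-like barcodes were at 114 and 119 CPM. Ungated barcodes, 37922 with a median of 787 UMIs, were at 417 CPM. The 875 mixed barcodes were at 1260 CPM and held 1920 UMIs of Col1a1, Col1a2 and Col3a1, against 3647 in all gated barcodes. The fibroblast-like total of 20700 CPM was raised by library 2. Col1a1, Col1a2 and Col3a1 were there at 13800, 17200 and 13000 CPM, against 4360, 5900 and 5730 in fibroblast-like barcodes of all libraries.

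**Figure D2:**
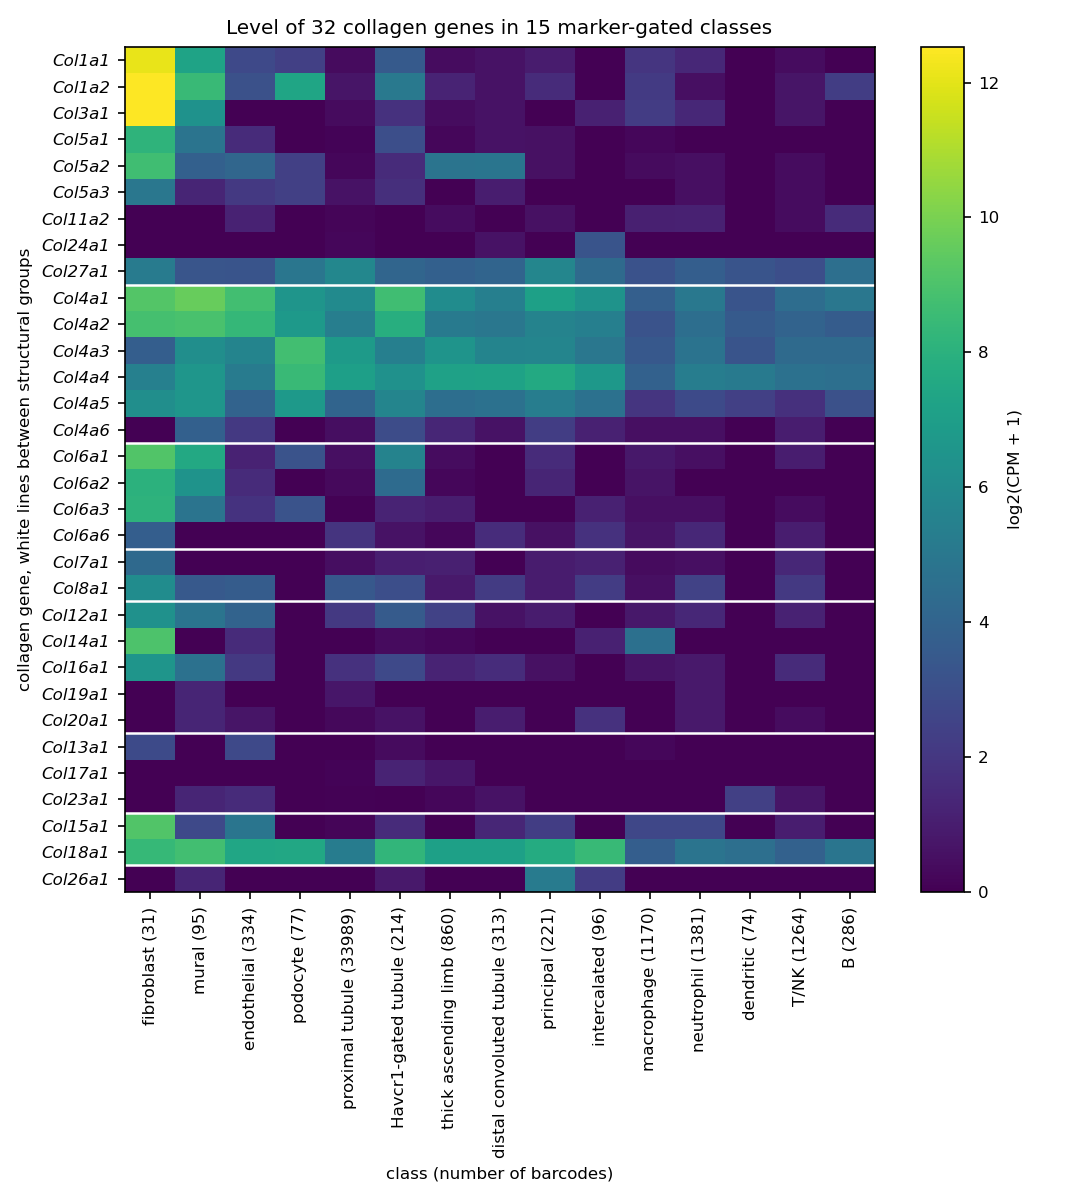
Level of the 32 collagen genes (rows, in structural groups) in the 15 classes (columns, with the number of barcodes), as log2(CPM + 1) by color. The genes of types I, III, V and VI were brightest in the fibroblast-like column, Col4a1, Col4a2 and Col18a1 in the mural-like column, and Col4a3, Col4a4 and Col4a5 in the podocyte-like column.

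Of the 32 genes, 17 had their highest level in the fibroblast-like class, 5 in the mural-like class and 3 in the podocyte-like class. No share over all genes is set beside these counts, so they have no background. Col13a1 and Col7a1, with 1 and 3 UMIs in fibroblast-like barcodes, are among the 17. A gene was counted as higher in a class when its CPM there was at least 2 times that in all other gated barcodes pooled. Where those others had no UMI of a gene, 3 UMIs were taken for them. By this rule 21 of 32 collagen genes (65.6%) were higher in fibroblast-like barcodes, against 21.2% of all 17667 genes with at least 20 UMIs. With the lower bound of the interval also above 2, it was 20 of 32, against 7.55% of all genes. Of these 20, 13 had at least 20 UMIs in fibroblast-like barcodes, and Col13a1, Col7a1 and Col5a3 had 1, 3 and 5. In mural-like barcodes 21 of 32 were higher (27.4% of all genes), and 15 with the bound (13.1%), 9 of them with at least 20 UMIs there. In endothelial-like barcodes 16 of 32 were higher (25.6%), and 8 with the bound (15.1%), 6 of them with at least 20 UMIs. In podocyte-like barcodes 10 of 32 were higher (17.2%), and 6 with the bound (4.45%), 5 of them with at least 20 UMIs. In the 6 tubule classes pooled 7 of 32 were higher (19.8%), and 3 with the bound (12.0%), so that the tubule shares, 21.9% and 9.38% of the members, were close to those of all genes. Col17a1 and Col24a1, with 32 and 45 UMIs in tubule classes and none in other gated barcodes, are not among the 7. They fell below 2 times once 3 UMIs were taken for the others. Because proximal tubule-like barcodes held most gated UMIs, the level was also set against the mean of the other classes with equal weight. There the 3 UMIs were not used, and Col17a1 and Col24a1 were counted in the tubule classes. The counts at 2 times were then 21 of 32 in fibroblast-like (13.7% of all genes), 12 in mural-like (15.5%), 5 in endothelial-like (14.4%), 3 in podocyte-like (12.5%) and 5 in tubule classes (19.5%). Among the 12 in mural-like barcodes, Col19a1, Col20a1 and Col23a1 were each found in 1 of 95 barcodes. Under this weighting the shares of the members, 15.6% in endothelial-like, 9.38% in podocyte-like and 15.6% in tubule classes, were close to or below those of all genes. Against pooled barcodes, 25 of 32 were higher with the bound in at least 1 of these 5 comparisons (35.6% of all genes), and Col6a6, Col11a2, Col17a1, Col19a1, Col20a1, Col24a1 and Col26a1 in none. Counting genes with no UMI in a class as lowest, the median log2 ratio of the 32 genes was 3.20 in fibroblast-like barcodes, against -0.89 over all genes, and 2.78 in mural-like barcodes, against 0.09. It was 0.86 in endothelial-like barcodes, against 0.01, and -0.69 in tubule classes, against -0.11. In podocyte-like barcodes 13 of the 32 had a UMI, so the median gene of the 32 had none there, against a median of -0.42 over all genes.

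**Figure D3:**
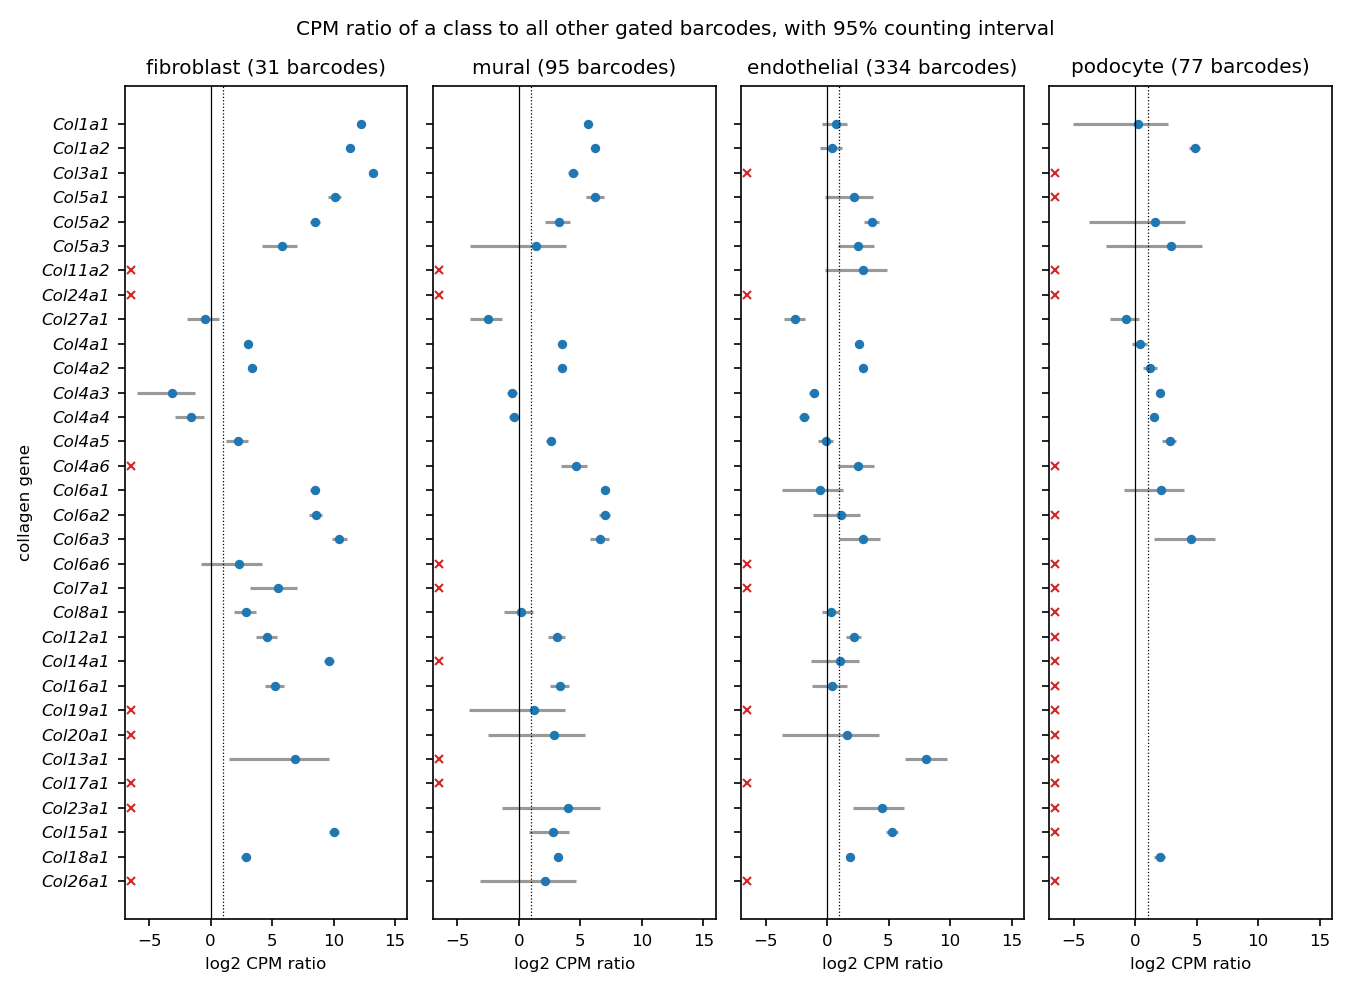
CPM ratio of each collagen gene in a class to all other gated barcodes (log2; points, with horizontal 95% counting intervals) for the fibroblast-like, mural-like, endothelial-like and podocyte-like classes. Crosses mark genes with no UMI in that class, and the dotted line marks a ratio of 2. Col3a1 lay at 13.17 in the fibroblast-like panel and 4.40 in the mural-like panel.

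In fibroblast-like barcodes the type I and type III chains had the highest levels of the fibrillar collagens. Col1a1, the α1 chain of type I collagen, was at 4360 CPM (4040 to 4690) in fibroblast-like barcodes and 0.933 CPM in all other gated barcodes, a log2 ratio of 12.19 (11.98 to 12.4). In the libraries that held fibroblast-like barcodes, it was at 2320, 13800, 1320 and 1200 CPM in libraries 1 to 4. Library 2 stood above the others beyond the counting interval, and the log2 ratio was 11.16 without library 2 and 13.60 without library 1. One barcode of library 2 carried 334 of the 715 Col1a1 UMIs, and without it the level was 2440 CPM. The barcode median was 1590 CPM. Against the mean of the other classes with equal weight, the log2 ratios of Col1a1, Col1a2 and Col3a1 were 8.4, 7.18 and 9.75. Col1a1 was found in 28 of 31 fibroblast-like barcodes.

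Col1a2, the α2 chain of type I collagen, was at 5900 CPM in fibroblast-like barcodes (3630 without the same barcode) and 2.25 in the others, a log2 ratio of 11.36 (11.21 to 11.51). It was at 3210, 17200, 2210 and 4260 CPM in libraries 1 to 4. The ratio was 13.09 without library 1 and 10.33 without library 2. Col3a1, the chain of type III collagen, was at 5730 CPM in fibroblast-like barcodes (4340 without that barcode), with 3560, 13000, 4220 and 3610 CPM in libraries 1 to 4. Its log2 ratio of 13.17 (12.93 to 13.42) was 14.46 without library 1 and 12.52 without library 2. The annotation places an exon of Gm47302 on the same strand over an exon of Col3a1, so reads of that stretch cannot be given to 1 of them. All 3 genes were found together in 28 of 31 fibroblast-like barcodes, 5 of 95 mural-like barcodes and none of 77 podocyte-like barcodes.

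The 250 bases before the Col3a1 start are shown because this gene had the highest fibroblast-like ratio of the members. They lie at chr1:45311288-45311537 on the plus strand of GRCm38.p6 (RefSeq), and capitals mark a match to the letters searched for a TATA box. Whether this match acts as a TATA box was not tested.
Col3a1: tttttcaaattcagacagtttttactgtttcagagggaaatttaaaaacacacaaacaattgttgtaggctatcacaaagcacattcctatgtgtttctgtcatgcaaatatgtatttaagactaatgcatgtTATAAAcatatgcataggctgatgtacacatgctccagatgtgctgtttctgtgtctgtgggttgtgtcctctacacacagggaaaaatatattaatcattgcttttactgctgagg
The TATA box was searched on both strands as TATAAA, which was in this window once and in 12.4% of 32851 RefSeq promoters of the same length. The CCAAT box, searched by those letters, was not in it and was in 33.8% of promoters. The GC box was searched as GGGCGG, was not in it and was in 32.7% of promoters. A promoter was given for 26 of the 32 members.

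Type V collagen, which is found inside type I fibers, followed the same class. Col5a1 was at 286 CPM (210 to 381) and Col5a2 at 414 (322 to 525) in fibroblast-like barcodes, with log2 ratios of 10.08 and 8.49, and of 6.72 and 5.95 against the mean of the other classes with equal weight. Col5a3 was at 30.5 CPM (9.89 to 71.1) there, from 5 UMIs in 5 barcodes, and at 15.4 CPM without library 2, with a log2 ratio of 5.8 (4.16 to 7.06). The Col5a1 ratio was 11.88 without library 1 and 8.99 without library 2, and its level was 123 CPM without library 2. Col5a2 was also found in tubule classes that had little Col1a1. It was at 27.7 CPM (23.6 to 32.2) in thick ascending limb-like and 28.2 CPM (21.3 to 36.6) in distal convoluted tubule-like barcodes, against 0.172 in proximal tubule-like barcodes. In the thick ascending limb-like class it was at 34.6, 28.0, 14.9, 22.0 and 107.0 CPM in libraries 1 to 5, from 7 UMIs in library 4, and library 5 was highest beyond the counting interval. Without library 3 it was at 44.1 CPM. Col1a1 was at 0.336 and 0.504 CPM in the 2 distal classes. Col5a2 UMIs came from 107 of 860 thick ascending limb-like barcodes, 12.4%, against 0.0791% of T/NK-like barcodes, with median depths of 5734.5 and 1774 UMIs. After thinning each barcode to 1000 UMIs the shares were 2.76% and 0.0835%.

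The UMIs of the 2 type I chains were also compared within classes. The log2 ratio of Col1a1 to Col1a2 UMIs was -0.44 (-0.58 to -0.30) in fibroblast-like, -1.2 (-1.55 to -0.87) in mural-like and -1.63 (-2.20 to -1.10) in Havcr1-gated barcodes. The mural-like value rested on library 1. It was -1.37 (-1.74 to -1.0) within library 1 and -0.14 (-1.12 to 0.82) within library 2, and without library 1 it was -0.25 (-1.16 to 0.64), which overlaps the fibroblast-like interval. The Havcr1-gated ratio was -1.27 (-2.38 to -0.26) without library 1, from 12 and 29 UMIs, which also overlaps the fibroblast-like interval. Its Col1a1 UMIs came from 5 of 214 barcodes. In fibroblast-like barcodes the ratio was -0.47, -0.31, -0.74 and -1.82 within libraries 1 to 4, the last from 13 and 46 UMIs. In podocyte-like barcodes it was -5.29, with 1 UMI of Col1a1 and 39 of Col1a2. These 39 UMIs came from 17 of 77 podocyte-like barcodes, with 12 in a single barcode, and gave 163 CPM (116 to 223), or 272 CPM without library 1. Before thinning 22.1% of podocyte-like and 0.158% of T/NK-like barcodes had a Col1a2 UMI, with median depths of 1247 and 1774 UMIs. Thinned to 1000 UMIs, it was 22.0% of 50 and 0.167% of 1197 barcodes, with 27 and 67 shallower barcodes left out.

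Among the remaining fibrillar genes, Col27a1 was different. It was at 54.2 CPM (53.3 to 55.2) in proximal tubule-like and 53.7 (44.3 to 64.6) in principal-like barcodes, 2 neighbours whose intervals overlap, and at 36.5 CPM, from 6 UMIs, in fibroblast-like barcodes. The log2 ratio in proximal tubule-like barcodes was 1.88 (1.74 to 2.02), and it was positive within each library, from 0.73 in library 5 to 2.29 in library 2. It was 2.53 with a mitochondrial limit of 10% and 1.55 against the mean of the other classes with equal weight. Col24a1 and Col11a2 were low. Col24a1 had 58 UMIs in kept barcodes, 7 of them in 96 intercalated-like barcodes (8.44 CPM) and all 7 in library 3, and Col11a2 had 58 UMIs, with 30 in proximal tubule-like and 8 in macrophage-like barcodes.

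Mural-like barcodes carried type I and III chains at lower levels. Col1a2 was at 354 CPM (311 to 401), Col1a1 at 154 (126 to 186) and Col3a1 at 82.7 (62.6 to 107). Of the 57 Col3a1 UMIs, 35 were in 1 barcode, and without it the level was 32.4 CPM. By library, Col1a2 was at 545 CPM in 40 barcodes of library 1 and 110 in 33 barcodes of library 2, and library 1 held 219 of the 244 UMIs. Without library 1 the mural-like levels were 86.9 CPM for Col1a2, 73.0 for Col1a1 and 38.2 for Col3a1. Fibroblast-like and mural-like barcodes together held 83.1% (81.9 to 84.3) of the Col1a1, Col1a2 and Col3a1 UMIs of gated barcodes, 3032 of 3647. A single fibroblast-like barcode held 334, 402 and 262 UMIs of Col1a1, Col1a2 and Col3a1. Mixed and ungated kept barcodes, outside this share, held 1920 and 638 UMIs of the 3 genes.

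The 6 type IV genes lie in 3 pairs in the genome. Col4a1 and Col4a2 lie head to head on chromosome 8 of GRCm38, Col4a1 at chr8:11198423-11312826 on the minus strand and Col4a2 at chr8:11312805-11449287 on the plus strand, with 22 shared bases in the GENCODE annotation. Col4a4 at chr1:82448423-82586849 and Col4a3 at chr1:82586921-82722059 lie head to head with 71 bases between them. Col4a6 and Col4a5 lie head to head on the X chromosome with 1308 bases between them. The 71 bases between the starts of Col4a4 and Col4a3 (chr1:82586850-82586920, minus strand, RefSeq) are shown because this pair did not keep 1 ratio across classes. This was also so for Col4a1 and Col4a2.
Col4a4-Col4a3: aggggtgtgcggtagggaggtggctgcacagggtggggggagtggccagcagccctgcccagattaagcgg
None of the 3 motifs above was in these 71 bases.

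Col4a1 and Col4a2, the chains of the common basement membrane network, had their highest levels over all libraries in mural-like barcodes, at 776 CPM (712 to 845) and 486 (435 to 541). Fibroblast-like barcodes followed at 573 (463 to 701) and 457 (359 to 573), and the 2 classes overlapped in Col4a2. In Col4a1 they did not overlap in all libraries together, but did without library 1, at 570 (486 to 664) in mural-like and 514 (379 to 681) in fibroblast-like barcodes. Without library 1 Col4a2 was at 396 and 460 CPM, so that fibroblast-like barcodes were then the higher. Endothelial-like barcodes were at 422 (391 to 456) and 326 (298 to 355), and Havcr1-gated barcodes at 407 (386 to 428) and 230 (215 to 246). Proximal tubule-like barcodes were at 63.7 and 40.3 CPM, and macrophage-like barcodes at 12.9 and 8.36. The log2 ratios in mural-like barcodes were 3.49 for both genes, and 2.45 and 2.3 against the mean of the other classes with equal weight. Within libraries 1 and 2 the Col4a1 ratio was 4.33 and 3.41. In endothelial-like barcodes Col4a1 was at 237, 519 and 571 CPM and Col4a2 at 147, 430 and 464 CPM in libraries 1, 2 and 3, both lowest in library 1 beyond the counting interval.

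In the Havcr1-gated class, Col4a1 was at 503, 606 and 142 CPM in libraries 1, 2 and 3, and Col4a2 at 314, 329 and 81.4. Library 3 was below the other 2 beyond the counting interval for both genes. Col18a1 showed the same order, at 327, 418 and 165 CPM. Type VI genes were present in libraries 1 and 2 of this class as well: Col6a1 was at 138 and 49.8 CPM, and had 1 UMI in library 3. Col1a2 was at 113 and 22.6 CPM, with no UMI in library 3. Libraries 4 and 5 had 12 and 1 barcodes in this class and are not given.

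Col4a3 and Col4a4, chains of the glomerular network, were highest in podocyte-like barcodes, at 419 CPM (341 to 509) and 364 (292 to 449). The log2 ratios were 2.0 (1.7 to 2.28) and 1.52 (1.2 to 1.82), and the Col4a3 ratio was 2.72 without library 1, 1.58 without library 3, 1.63 with barcodes passing several gates given to the strongest and 2.79 with a mitochondrial limit of 10%. The Col4a3 level was 690 CPM without library 1. The Col4a4 ratio was between 1.21 without library 3 and 2.04 without library 1. Against the mean of the other classes with equal weight the ratios were 3.32 and 2.2. Col4a5, the third chain of this network, was at 109 CPM (71.1 to 159) in podocyte-like, 94.3 (72.8 to 120) in mural-like and 73.1 in fibroblast-like barcodes, 3 levels whose intervals overlap. The last was 42.8 CPM (11.7 to 110) without library 1. Col4a6 was low, with 294 UMIs in kept barcodes and its highest level, 13.1 CPM from 9 UMIs, in mural-like barcodes. Its 0 UMIs in podocyte-like barcodes allow up to 12.6 CPM at 3 counts.

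Tubules also carried Col4a3 and Col4a4. In proximal tubule-like barcodes Col4a3 was at 113 CPM (111 to 114) and Col4a4 at 133 (132 to 135), and in thick ascending limb-like barcodes at 88.4 and 144 CPM. Principal-like barcodes, from the collecting duct, were at 50.4 for Col4a3 and 196 (178 to 216) for Col4a4. T/NK-like barcodes, which should lack both, were at 19.2 and 24.4 CPM. Thinned to 1000 UMIs, 10.2% of proximal tubule-like barcodes and 1.75% of T/NK-like barcodes had a Col4a3 UMI, and before thinning the shares were 45.4% and 3.64%, with median depths of 6204 and 1774 UMIs.

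The 2 genes of this pair were not in 1 ratio. The log2 ratio of Col4a4 to Col4a3 UMIs was -0.20 (-0.63 to 0.23) in podocyte-like, 0.24 (0.22 to 0.26) in proximal tubule-like, 0.70 (0.54 to 0.86) in thick ascending limb-like, 1.60 (1.27 to 1.94) in distal convoluted tubule-like, 1.96 (1.65 to 2.28) in principal-like and 1.75 (1.09 to 2.45) in intercalated-like barcodes. The intervals of podocyte-like and proximal tubule-like barcodes overlapped, as did those of the last 3 classes. Within library 4 the ratio was -0.22 (-0.91 to 0.45) in thick ascending limb-like and 0.81 (-0.13 to 1.79) in principal-like barcodes. In proximal tubule-like barcodes it was 0.17, 0.27, 0.43 (0.38 to 0.49), 0.38 and -0.01 (-0.06 to 0.04) within libraries 1 to 5. Libraries thus differed beyond the counting interval. Havcr1-gated barcodes were at 0.99 (0.7 to 1.29). For Col4a1 to Col4a2 it was -0.18 (-1.08 to 0.7) in podocyte-like, 0.38 (0.21 to 0.55) in endothelial-like, 0.66 (0.62 to 0.7) in proximal tubule-like, 1.04 (0.79 to 1.29) in thick ascending limb-like, 0.41 (-0.09 to 0.91) in distal convoluted tubule-like, 1.5 (1.17 to 1.84) in principal-like and 1.06 (0.45 to 1.7) in intercalated-like barcodes. UMIs are read from transcript ends, so a ratio of 2 genes is compared only between classes and not read as a ratio of levels.

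**Figure D4:**
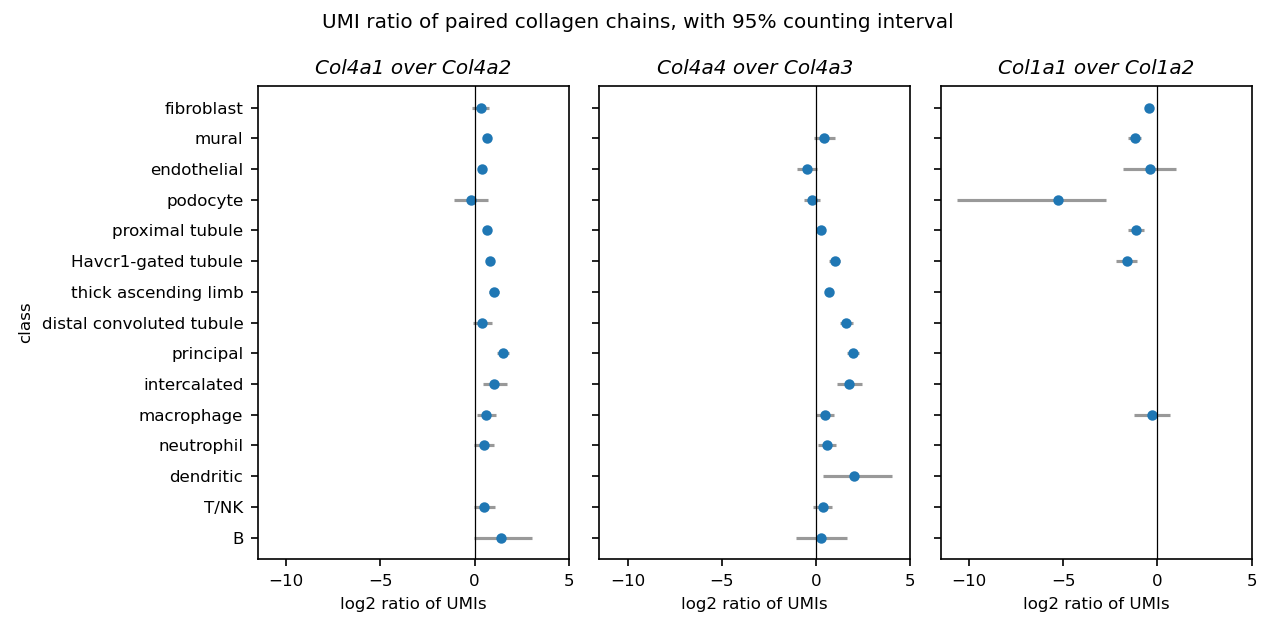
Log2 ratio of UMIs of 2 chains (points, with 95% counting intervals) by class, for Col4a1 over Col4a2, Col4a4 over Col4a3 and Col1a1 over Col1a2; classes with fewer than 20 UMIs of a pair are left out. In the middle panel the ratio lay between -0.49 in endothelial-like and 2.0 in dendritic-like barcodes, the last with a wide interval from 16 and 4 UMIs.

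By library, the tubular collagens differed more than their counting intervals within proximal tubule-like barcodes. Col4a1 was at 34.9, 58.3, 90.3, 74.8 and 45.7 CPM in libraries 1 to 5, and Col4a2 at 24.3, 39.2, 52.7, 46.1 and 32.1, so both were highest in library 3 and lowest in library 1. Col18a1 was at 22.8, 34.8, 65.4, 33.6 and 13.8 CPM, highest in library 3 and lowest in library 5. Col27a1 was at 48.3, 58.0, 85.2, 32.2 and 33.0 CPM and Col8a1 at 6.04, 9.63, 15.7, 7.41 and 8.11, both highest in library 3. Col4a5 was at 10.9, 15.9, 18.8, 15.5 and 13.0 CPM. Col4a3 had the opposite extreme: it was at 114, 127, 71.9, 117 and 151 CPM, lowest in library 3. Col4a4 was at 129, 153, 97.1, 152 and 150 CPM, also lowest in library 3. The median depth of proximal tubule-like barcodes was 6931, 7048, 5870, 5956 and 5956 UMIs in libraries 1 to 5, and the part of depth in these values was not tested.

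**Figure D5:**
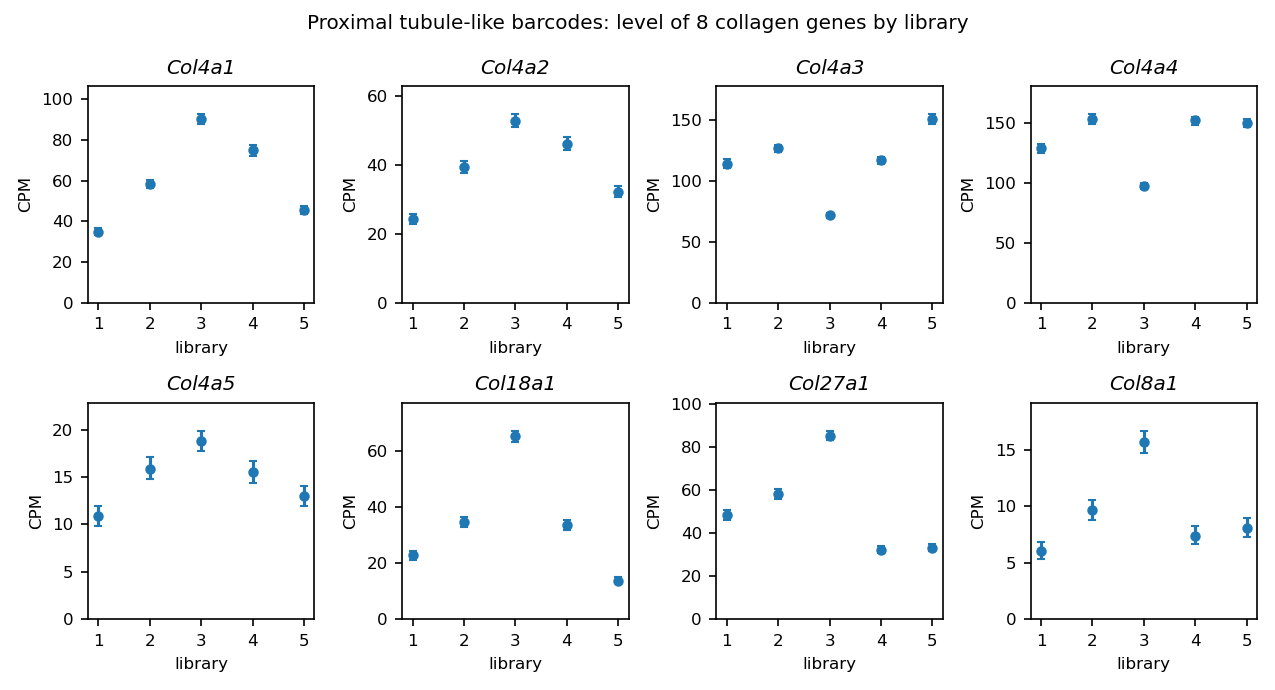
Level (CPM) of 8 collagen genes in proximal tubule-like barcodes of libraries 1 to 5 (points, with 95% counting intervals, each axis from 0). Col4a1, Col4a2, Col18a1, Col27a1 and Col8a1 were highest in library 3 and Col4a3 and Col4a4 were lowest there.

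The type VI genes Col6a1, Col6a2 and Col6a3 were highest in fibroblast-like barcodes. Col6a1 was at 554 CPM (446 to 681) in fibroblast-like, 186 (155 to 221) in mural-like, 48.0 (41.2 to 55.7) in Havcr1-gated and 0.436 in proximal tubule-like barcodes. Col6a2 was at 268, 84.2, 19.6 and 0.226 CPM in the same order, and Col6a3 at 274, 27.6, 1.38 and 0.0419. Library 1 held 100 of the 128 Col6a1 and 46 of the 58 Col6a2 UMIs of mural-like barcodes, and without it their levels were 97.3 and 41.7 CPM. In Havcr1-gated barcodes Col6a1 was at 22.9, Col6a2 at 8.12 and Col6a3 at 0.353 CPM without library 1. The fibroblast-like level of Col6a1 was 369 CPM without library 2, and that of Col6a3 was 182 CPM without library 1. The log2 ratios in fibroblast-like barcodes were 8.45, 8.54 and 10.47. Against the mean of the other classes with equal weight they were 4.97, 5.12 and 6.47. Those of Col6a1 and Col6a2 were 9.85 and 9.70 without library 1. Col6a6 was different: 655 of its 755 UMIs were in proximal tubule-like barcodes, at 2.74 CPM (2.54 to 2.96), with 3.54, 2.87, 0.141, 1.26 and 7.12 CPM in libraries 1 to 5. Library 5 was highest and library 3 lowest beyond the counting interval, and the level was 1.74 CPM without library 5. Its highest level, 12.2 CPM in fibroblast-like barcodes, came from 2 UMIs, and that log2 ratio of 2.28 was between 1.33 without library 3 and 3.16 without library 1, with 1.64 without library 2 and 2.94 without library 5. It was 3.88 against the mean of the other classes with equal weight and 4.01 thinned to 1000 UMIs.

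The fibril-associated collagens and the multiplexins were split between stroma and other classes. Col14a1, which binds the surface of type I fibers, was at 518 CPM (414 to 640) in fibroblast-like barcodes, a log2 ratio of 9.64 that was 10.43 without library 1, 7.76 with a mitochondrial limit of 10% and 8.06 against the mean of the other classes with equal weight. In fibroblast-like barcodes it was at 98.9, 1260, 434 and 1300 CPM in libraries 1 to 4, and at 835 CPM without library 1 and 323 without library 2. It was also found in macrophage-like barcodes at 23.5 CPM (20 to 27.4), from 160 UMIs in 114 of 1170 barcodes with at most 5 in any 1. In macrophage-like barcodes it was at 23.8, 38.5, 5.37 and 18.5 CPM in libraries 1 to 4, from 9 UMIs in library 3, with 4 UMIs in library 5, and the log2 ratio within each library was between 4.23 and 9.81. By comparison T/NK-like and B-like barcodes had 0 UMIs, which allows up to 0.978 and 5.69 CPM at 3 counts. In the same macrophage-like barcodes Col1a1 was at 2.79 CPM, and at 0.377 CPM without library 1. Col12a1 and Col16a1 were at 79.2 and 91.4 CPM in fibroblast-like barcodes from 13 and 15 UMIs, and the Col12a1 log2 ratio of 4.6 was 3.31 without library 1, 5.22 without library 3 and 5.87 with a stricter gate. The Col12a1 level was 32.1 CPM without library 1.

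Col15a1, a multiplexin of vessel and muscle basement membranes, was at 560 CPM (452 to 687) in fibroblast-like and 28.4 (20.6 to 38.1) in endothelial-like barcodes, and at 5.80 in mural-like barcodes. In fibroblast-like barcodes it was at 820, 817, 82.7 and 185 CPM in libraries 1 to 4, from 4 and 2 UMIs in libraries 3 and 4, and at 364 CPM without library 1. Of the 31 barcodes 15 had a UMI, so the barcode median was 0. Its fibroblast-like log2 ratio was 10.01, and 7.21 against the mean of the other classes with equal weight. Col18a1, whose end piece is endostatin, was at 427 CPM (379 to 478) in mural-like, 341 (303 to 383) in intercalated-like, 335 (252 to 436) in fibroblast-like and 299 (282 to 318) in Havcr1-gated barcodes. The first 3 of these overlapped in their intervals. The mural-like log2 ratio was 3.22, and 1.61 against the mean of the other classes with equal weight. In endothelial-like barcodes it was at 63.0, 112 and 320 CPM in libraries 1, 2 and 3. Col18a1 was at 207 CPM in principal-like, 184 in podocyte-like, 168 in endothelial-like, 139 in distal convoluted tubule-like, 137 in thick ascending limb-like and 36.8 in proximal tubule-like barcodes. Without library 1 the interval of the podocyte-like level of Col18a1 was 206 to 421 CPM, above the 184 CPM of all libraries, and without library 3 the distal convoluted tubule-like level was 85.8 CPM.

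Col26a1 was at 36.6 CPM (28.9 to 45.8) in principal-like barcodes, from 77 UMIs in 53 of 221 barcodes, and at 0.0487 CPM in all other gated barcodes, a log2 ratio of 9.55 (8.70 to 10.53), of 6.44 against the mean of the other classes with equal weight and of 10.87 thinned to 1000 UMIs. It was found there in every library, with 13, 15, 33, 3 and 13 UMIs. Col8a1, a network collagen, had 2374 of its 3014 UMIs in proximal tubule-like barcodes, at 9.95 CPM, but its highest level, 67.0 CPM from 11 UMIs, was in fibroblast-like barcodes, with a log2 ratio of 2.87 that was 1.71 without library 1 and 3.68 without library 3, and 4.07 against the mean of the other classes with equal weight. Its fibroblast-like level was 32.1 CPM without library 1. Col7a1, of anchoring fibrils, had 3 UMIs in fibroblast-like barcodes, and the transmembrane collagens Col13a1, Col17a1 and Col23a1 had 22, 65 and 62 UMIs in kept barcodes. Of the 22 Col13a1 UMIs, 9 were in endothelial-like barcodes. Col5a3, Col19a1 and Col20a1 had 230, 172 and 78 UMIs, of which 128, 159 and 45 were in proximal tubule-like barcodes. The mural-like ratio of Col19a1 rests on 1 UMI, and its log2 value of 1.27 was 2.79 without library 1, 3.35 as a mean over barcodes and 3.78 against the mean of the other classes with equal weight.

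The genes most like 3 of the members were taken by the correlation of log2(CPM + 1) over 49 units, each a class in 1 library with at least 20 barcodes. The units share libraries and depth, so the correlations are descriptions. Col1a1 was most like Col6a2 (r = 0.88), Col5a1 (0.87), Col6a1 (0.87), Ptgis (0.87) and Fxyd1 (0.86). No library held 20 fibroblast-like barcodes, so none of the 49 units was fibroblast-like. Col4a1 was most like Col4a2 (0.87), Nedd4 (0.86), Lpp (0.85), Smtn (0.82) and Cd151 (0.81). Col4a3 was most like Chchd7 (0.82), Pkd2 (0.80), Col4a4 (0.80) and 4833439L19Rik (0.80).

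The enzymes and chaperones that collagen chains need were compared in fibroblast-like barcodes with all other gated barcodes. In this and the next paragraph the ratios are against pooled barcodes only, most of whose UMIs were proximal tubule-like. They are not given with equal weight of the classes, by library or without single barcodes. Of 18 genes for chain folding and hydroxylation with at least 20 UMIs, 15 were at least 2 times higher and 9 had the bound above 2, with a median log2 ratio of 1.88, against 21.2% and 7.55% of all genes and a median of -0.89. Fkbp10, a prolyl isomerase, was at 110 against 0.387 CPM (log2 ratio 8.15), P3h4 at 48.7 against 0.799 (5.93), P3h3 at 67.0 against 1.38 (5.60), Serpinh1, the collagen chaperone HSP47, at 1540 against 53.7 (4.84) and Fkbp14 at 60.9 against 5.27 (3.53). Colgalt2, with 256 UMIs in kept barcodes, had none in fibroblast-like barcodes, and the lowest of those with a UMI were Mia3 (-0.42) and P3h2 (-2.61, from 1 UMI). P3h2, a prolyl 3-hydroxylase, was highest in podocyte-like barcodes.

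The list for propeptide cleavage and cross-linking, with 12 genes, also counts Sparc, a collagen-binding protein. Of these 12, 10 were at least 2 times higher (21.2% of all genes) and 9 had the bound above 2 (7.55%), with a median log2 ratio of 6.96. Adamts2, which cuts the amino end of procollagens, had 40 of its 74 UMIs in fibroblast-like barcodes (13.00). Lox, a cross-linking enzyme, was at 67.0 against 0.29 CPM (7.85), Pcolce2 at 274 against 1.54 (7.48), Sparc at 7800 against 53.4 (7.19) and Loxl3 at 24.4 against 0.171 (7.15). The lowest were Bmp1 (6.54) and Loxl4 (3.76, from 1 UMI). Adamts3 and Adamts14 had no UMI in fibroblast-like barcodes. Of 10 genes for collagen receptors and uptake, 7 were at least 2 times higher (21.2% of all genes) and 6 had the bound above 2 (7.55%), with a median log2 ratio of 3.67. The collagen receptor Ddr2 was at 171 against 0.0966 CPM (10.79), the uptake receptor Mrc2 at 140 against 0.175 (9.65), Itga11 at 6.09 against 0.0558 from 1 UMI (6.77), the protease Ctsk at 128 against 1.46 (6.45) and Itga10 at 12.2 against 0.684 from 2 UMIs (4.15). Ddr1, the epithelial collagen receptor, was at 12.2 CPM in fibroblast-like barcodes, from 2 UMIs, against 42.9 in the others (-1.82, interval -4.86 to 0.04, which holds no difference), and was highest in principal-like barcodes. The collagen-binding integrin Itga1 was at 110 against 66.6 CPM (0.72, interval -0.04 to 1.38). Lair1 had no UMI in fibroblast-like barcodes and was highest in macrophage-like barcodes.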

How the data were processed

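Kidney cells were sequenced with the 10x Genomics 3′ protocol, and the authors aligned reads to mm10 and counted UMIs with Cell Ranger 6.0. The deposited matrix holds raw UMI counts of 10474594 barcodes in 5 libraries of 82426945 to 139382799 UMIs. From these counts, kept barcodes were chosen, gated by marker genes (at least 3 UMIs of at least 2 markers) and summed by class, and CPM were computed. Podxl was left out of the podocyte gate after the data were seen, since it is also known from endothelium. Poisson intervals were used for CPM, exact conditional binomial intervals for ratios, and Clopper-Pearson intervals for shares. With no replicates tied to a condition, no test was made. Thinning drew 1000 UMIs per barcode, leaving out shallower barcodes. Positions came from GENCODE vM21 (GRCm38). The members, markers and gene lists were chosen with earlier results of these data known. The named genes were every kept collagen, in each other list the 5 highest and 2 lowest fibroblast-like ratios, and the 5 genes most like each of 3 collagens, of which 1 is not reported here. An exon of 3 members is overlapped on the same strand and of 6 on the other strand. Scripts ran in Python 3.11.15 with scipy 1.17.1 and were tested on simulated counts.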

Additional observations from a re-analysis of the deposited data

Results flagged for a closer look

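A fibrillar collagen signal was found outside the kept barcodes. Barcodes of at least 10 and fewer than 500 UMIs that were rich in Col1a1, Col1a2 and Col3a1 held 53.4%, 79.0% and 41.0% of the UMIs of these 3 genes in libraries 3, 4 and 5, and none in libraries 1 and 2. No sample is known to be the control of these libraries, and the signal is listed here because it lies in barcodes left out of the analysis of classes. These barcodes were chosen by their UMIs of Col1a1, Col1a2 and Col3a1, so a high level of these genes follows from the choice. Col1a2 was at 58500, 41300 and 71900 CPM in these barcodes of libraries 3, 4 and 5. Of genes not used in the choice, Dcn was at 9210, 9720 and 9220 CPM and Lum at 1430, 1740 and 1450 CPM. Slc34a1 of the proximal tubule, also not used, was at 145, 58.7 and 58.0 CPM. Of the 1455 sequences of library 3, 1297 (89.1%) were also rich in library 4, where they were 35.0% of 3710. Of the 728 of library 5, 679 (93.3%) were rich in library 4, where they were 18.3%. Among all barcodes of this depth, 17.1% of those of library 3 had a sequence found in library 4, and 2.15% of those of library 1 had one found in library 2. The 3906 sequences had median depths of 23, 65 and 14 UMIs in libraries 3, 4 and 5. In libraries 1 and 2, 63.0% and 50.2% of them had a UMI, and none of these genes. The source of these barcodes was not tested.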

How the results depend on the processing

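The depth of 31 fibroblast-like and 77 podocyte-like barcodes and the lack of replicates limit the values. No paired analysis was possible because the libraries carry no labels or replicate numbers and no test was made. The share of gated collagen UMIs in fibroblast-like and mural-like barcodes, 4.05%, was 7.93% with a mitochondrial limit of 10%, 3.92% with a stricter gate, 5.59% when barcodes passing several gates went to the strongest, 4.26% as a mean over barcodes, 4.30% thinned to 1000 UMIs, and 2.65% to 5.09% leaving out 1 library. Against the mean of the other classes with equal weight, 12 genes were at least 2 times higher in mural-like, 5 in endothelial-like and 3 in podocyte-like barcodes. The shares over all genes were 15.5%, 14.4% and 12.5%. Thinned, the podocyte-like count was 6. At a fold limit of 4 it was 6, and 4 in tubule classes. No share over all genes is set beside the thinned counts and those at a fold limit of 4, so they have no background. With the bound above 2, chosen after the data were seen, the counts were 8 in endothelial-like, 6 in podocyte-like barcodes and 3 in tubule classes. The shares over all genes were then 15.1%, 4.45% and 12.0%. Without the shared shallow sequences, also chosen after the data were seen, the fibroblast-like count stayed at 21, with no share over all genes taken for that setting. For 26 genes, of 312 ratios in the leading class under other settings, 205 lay inside the counting interval of the reported ratio, 102 outside it in the same direction, 0 reversed and 5 had no value. The leading class was the class with the highest level in these same data, so the direction was largely fixed in advance. A ratio with no UMI in the class was filed as no value and could not count as reversed. Col7a1, for example, had no UMI in fibroblast-like barcodes without library 1. The causes of the differences were not tested.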
